A study of Mus musculus with 27 samples.

Results

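Elastic fiber and microfibril genes were followed through the differentiation of mouse calvarial osteoblasts. The group held 10 genes, taken by name from the 37991 genes of the expression files, and all 10 passed the filter on low counts. They were elastin (Eln), the fibrillins Fbn1 and Fbn2, the microfibril-associated genes Mfap2, Mfap5 and Mfap4, the fibulins Fbln1, Fbln2 and Fbln5, and Emilin1.

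The cells came from the skull vault of neonatal C57BL/6J-Col3.6 CFP mice 5 to 9 days old, which carry cyan fluorescent protein under a Col3.6 collagen promoter fragment. Digested cells were grown for 4 days, sorted by flow cytometry for the fluorescent protein, and returned to culture with ascorbic acid, 4 mM beta-glycerol phosphate and 10% serum. RNA was sequenced on 9 days of differentiation, every other day from day 2 to day 18. All time points thus shared 1 strain, 1 transgene and 1 culture medium, there was no undifferentiated or untreated group, and the cells kept for culture were those in which the Col3.6 promoter was active, whatever their type.

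Each day was represented by 3 profiles, whose file names carried the same barcode on different lanes, and whose counts differed by no more than sampling noise (chi-square per degree of freedom from 0.999 to 1.02 over the days). They were therefore summed to 1 library per day, and the number of animals or cultures behind a day was not given. Libraries held 22470195 (day 10) to 62009157 (day 12) estimated counts, with a median of 43146793. Every test below rests on 9 libraries, 1 per day, with no biological replicate of any day, so the error of a test was the scatter of days around a line, a curve or the mean of a 3-day phase.

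Elastic fibers give tissues recoil. They are built from a core of crosslinked elastin laid down on bundles of microfibrils, which are polymers of fibrillin decorated by associated glycoproteins. Fibulins and emilins lie at the boundary between both materials and between fiber and cell. Microfibrils also occur without elastin, and in bone matrix they are known chiefly as a store of latent transforming growth factor beta (TGF-beta) and bone morphogenetic proteins.

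In these cultures 8 of the 10 genes were higher on days 14 to 18 than on days 2 to 6, Fbln2 was lower, and Fbn1 did not pass the test. Over all genes tested, 26.7% were called higher and 24.4% lower in the same contrast (51.1% in either direction). Elastin and Mfap2 changed most, Fbn2 was highest in the middle of the time course, and the mixture of microfibril-associated messages turned over from one led by Fbln2 to one led by Mfap4. Levels below are TPM, the relative transcript abundance of RSEM, after upper-quartile normalization, which divide by transcript length and so allow genes to be set side by side. Changes are log2 differences of fitted counts from the quasi-likelihood test of edgeR, with P values adjusted over the 15659 genes tested and a threshold of 0.05. In bulk RNA such as this, fewer cells of a type and less RNA per cell cannot be told apart.

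**Figure D1:**
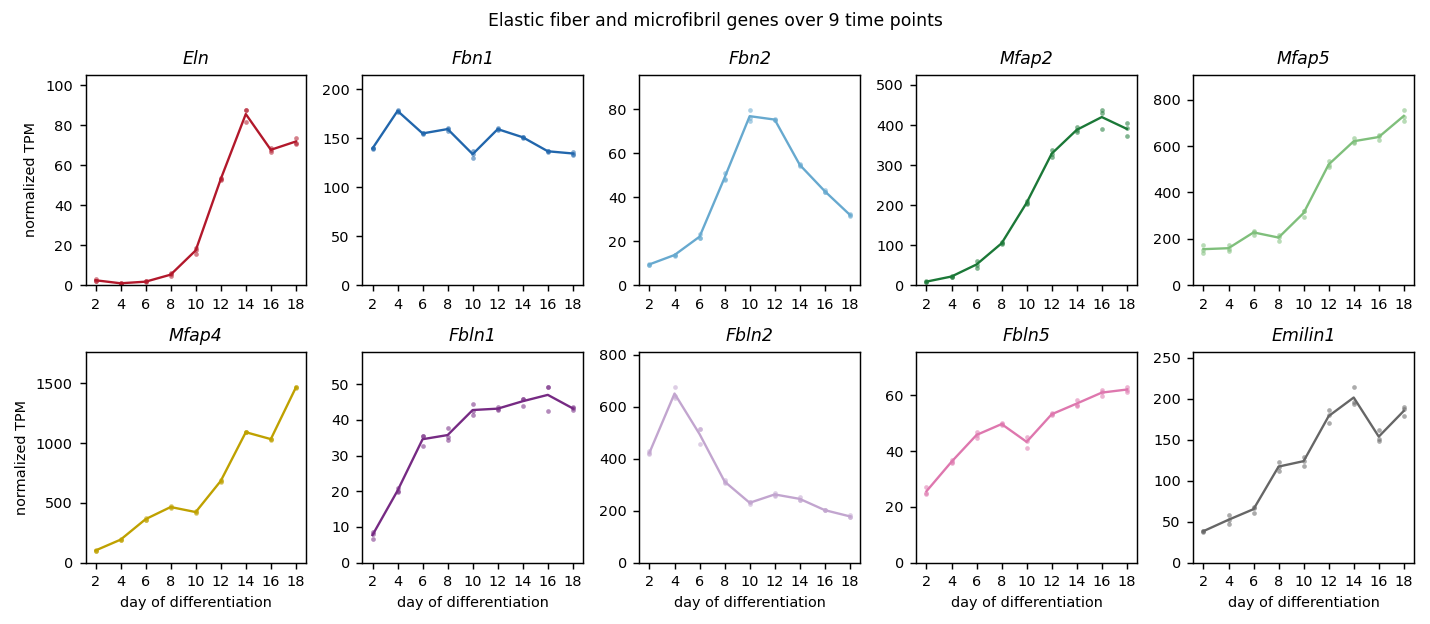
Level of each of the 10 genes (normalized TPM, vertical axis, 1 scale per panel) against day of differentiation (horizontal axis), with points for the 3 lane profiles of a day and a line through their mean. Eln stays below 5.4 TPM through day 8 and is above 53 TPM from day 12, Fbn2 is highest on day 10, Fbn1 keeps between 134 and 178 TPM, and Fbln2 is highest on day 4.

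Eln encodes tropoelastin, the soluble monomer of the elastic core. Its level was 2.54, 1.04, 1.84, 5.35, 17.5, 53.1, 85.6, 67.8 and 71.9 TPM on days 2, 4, 6, 8, 10, 12, 14, 16 and 18. The level was thus low on the first 4 days sampled and high on the last 4, with no overlap between days 2 to 6 and days 14 to 18. The low values rested on few reads, 67 estimated counts on day 4 against 5531 on day 14, and the SD over the 3 lanes of day 4 was 30.2% of the mean. Day 18 was 28.4-fold above day 2, and the highest day was 82.5-fold above the lowest. Eln rose over the time course, by 6.69 on the log2 scale per 16 days on a straight line (SE = 1.00, edgeR adjusted P = 0.000348) and by 5.31 between days 2 to 6 and days 14 to 18 (95% interval 3.64 to 6.99, edgeR adjusted P = 0.000794). The line corresponds to 103-fold, above both ratios of observed days, so its slope overstates the size of the rise. Among genes with a level above 0, Eln moved from the percentile 42.4 on day 2 to the percentile 92.0 on day 18.

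The fibrillins are the backbone of the microfibril. Fbn1, the main fibrillin of postnatal tissue, had 140, 178, 155, 160, 134, 160, 151, 137 and 135 TPM over the same days. Its levels on early and late days overlapped, and their mean of 150 TPM had an SD of 14.9 over the 9 days (9.92% of the mean), the narrowest relative spread of the 10 genes. The line fell by 0.29 on the log2 scale and did not pass the threshold (SE = 0.13, edgeR adjusted P = 0.0752). That call was close to the threshold: it passed with trimmed-mean (TMM) factors (-0.34, adjusted P = 0.0448), in DESeq2 (-0.32, adjusted P = 0.0226) and without day 2 (-0.42, adjusted P = 0.0228).

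Fbn2, the fibrillin of fetal and developing tissues, had another course. Its level was 9.53, 13.8, 22.1, 48.9, 76.8, 75.2, 54.7, 42.7 and 32.0 TPM from day 2 to day 18. It was highest on days 10 and 12 and came down on each later day sampled, while its lowest late day stayed above its highest early day. Fbn2 was 2.14 higher on the log2 scale on days 8 to 12 than on days 2 to 6 (SE = 0.31, edgeR adjusted P = 0.00435). Between days 2 to 6 and days 14 to 18 it was higher by 1.46 (SE = 0.30, edgeR adjusted P = 0.00360). The difference of -0.68 between days 8 to 12 and days 14 to 18 did not pass (unadjusted P = 0.0485, edgeR adjusted P = 0.303). A straight line gave 2.00 (SE = 0.97, edgeR adjusted P = 0.104), with 3.05 without day 18 (adjusted P = 0.0209) and 1.08 without day 2 (adjusted P = 0.420). The line also passed in DESeq2 (1.97, adjusted P = 0.0366) and in limma on log2(TPM + 1) (1.93, adjusted P = 0.0476). It passed with the 27 profiles as separate libraries as well, but that fit counts the lanes of 1 library as independent. A natural spline, which can bend, gave an edgeR adjusted P = 5.52e-06.

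The ratio of the fibrillin messages followed Fbn2, since Fbn1 moved little. Fbn2 made up 6.38% of the summed fibrillin TPM at the start (day 2), 36.4% at its highest (day 10) and 19.2% at the end (day 18). The ratio of Fbn2 to Fbn1 at these days was 0.0681 (SD over 3 lanes 0.00137), 0.573 (0.0219) and 0.238 (0.00148). The summed level of both genes ranged only from 149 TPM (day 2) to 235 TPM (day 12). Elastin against that sum was 0.0170 at the start and 0.432 at the end.

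Mfap2 and Mfap5 encode the microfibril-associated glycoproteins MAGP-1 and MAGP-2, small proteins that bind fibrillin. Mfap2 had 9.30, 22.1, 52.1, 105, 206, 329, 388, 420 and 390 TPM from day 2 to day 18, and every day through day 16 was above the one before. Its estimated counts were also few at first, 200 on day 2. Mfap2 rose by 5.39 on the line (SE = 0.76, edgeR adjusted P = 0.000255), with day 18 at 42.0-fold the level of day 2. On the log2 scale, most of that gain was made before day 14. Days 8 to 12 were 2.91 above days 2 to 6 (edgeR adjusted P = 0.00641). Days 14 to 18 were 0.85 above days 8 to 12, which did not pass (edgeR adjusted P = 0.413).

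Mfap5 started at a much higher level. Its 9 values, in the order of the days, were 156, 160, 228, 206, 312, 521, 621, 639 and 730 TPM. The gain was thus spread over the second part of the culture. Mfap5 rose by 2.23 on the line (SE = 0.18, edgeR adjusted P = 1.77e-05), the smallest P value of the 10 genes in that test. Mfap2 relative to Mfap5, by TPM, was 0.0597 on day 2, 0.661 at its highest on day 10 and 0.535 at the end. The sum of both was 1.11-fold that of the fibrillins on day 2 and 6.72-fold on day 18.

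Mfap4 encodes a fibrinogen-domain protein that binds elastin and fibrillin. Its values in the same order were 101, 191, 363, 465, 422, 683, 1091, 1033 and 1465 TPM. It had the highest mean level of the group, and on day 18 it was at the percentile 99.7 of all genes with a level above 0. Mfap4 rose by 3.41 on the line (SE = 0.32, edgeR adjusted P = 3.50e-05). Days 8 to 12 were 1.26 above days 2 to 6 (edgeR adjusted P = 0.0339), a call that was lost without any one of days 2, 4, 10, 12, 14 and 16 (adjusted P from 0.0506 to 0.109).

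The fibulins bridge elastin, microfibrils and basement membranes, and the 3 members split. Fbln2, which binds fibrillin and basement membrane proteins, was the one gene that fell. It had 423, 651, 494, 312, 230, 262, 245, 202 and 178 TPM from day 2 to day 18. Every late day was below every early day, and day 2 was 2.38-fold above day 18. The line fell by 1.71 on the log2 scale (SE = 0.22, edgeR adjusted P = 0.000161), and days 14 to 18 were below days 2 to 6 by a log2 change of -1.32 (SE = 0.18, edgeR adjusted P = 0.000729).

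Fbln1, a fibulin of elastic fibers and basement membranes, had 7.72, 20.2 and 34.6 TPM on the 3 early days and between 35.8 and 47.1 TPM on every later day. Its gain lay within the first 3 days sampled, and the level was nearly flat after that. The line gave 1.62 (SE = 0.51, edgeR adjusted P = 0.0199), and the call was lost without day 4 (1.55, adjusted P = 0.0578). Without day 2 the line was still called but its slope was 0.89. Days 14 to 18 were 1.05 above days 2 to 6 (SE = 0.39, edgeR adjusted P = 0.0473), which was lost without any one of days 4, 10, 12, 14, 16 and 18 (adjusted P from 0.0582 to 0.116). The size of that difference was 0.66 without day 2 and 1.61 without day 6, both still called. The natural spline gave an edgeR adjusted P = 2.36e-06.

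Fbln5, which tethers tropoelastin to microfibrils and to integrins on the cell surface, had a lowest level of 25.6 TPM (day 2), a median of 49.7 and a highest of 62.0 (day 18). The early days spanned 25.6 to 45.8 and the late days 57.0 to 62.0, with no overlap. It rose by 0.96 on the line (SE = 0.17, edgeR adjusted P = 0.000878), the smallest rise that passed. Because Fbln2 fell while Fbln5 rose, Fbln2 went from 16.5-fold the TPM of Fbln5 on day 2 to 2.86-fold on day 18, and from 54.8-fold to 4.11-fold that of Fbln1.

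Emilin1 encodes a glycoprotein of the elastin and microfibril interface that is known to restrain the maturation of TGF-beta. It had 38.4, 52.3, 65.3, 117, 124, 179, 202, 154 and 185 TPM from day 2 to day 18. The level on day 8 was already above every early day, and all late days were above all early ones. Emilin1 rose by 2.25 on the line (SE = 0.36, edgeR adjusted P = 0.000527) and by 1.41 between days 2 to 6 and days 8 to 12 (edgeR adjusted P = 0.00452).

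Over the 10 genes, the line called 7 higher and 1 lower, where 28.3% of the 15659 genes tested were called higher and 26.1% lower. The contrast of days 14 to 18 with days 2 to 6 called 8 higher and 1 lower, against 26.7% and 24.4% of all genes (51.1% in either direction). Without reference to a model, the late days were all above the early days in 8 members and all below in 1, against 32.4% and 25.6% of genes tested. The median log2 change of the 10 genes was 2.11 on the line and 1.57 between these phases, beside 0.05 and 0.04 over all genes tested.

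The phase of days 8 to 12 already differed from days 2 to 6 in most members. Against days 2 to 6 it had 6 members higher (Eln, Fbn2, Mfap2, Mfap5, Mfap4 and Emilin1) and Fbln2 lower, where 17.3% and 13.6% of all genes were called (31% in either direction), with a median log2 change of 1.10 beside 0.06 over all genes. In TPM, however, Eln, Mfap4 and Mfap5 gained more after this phase than before it. Their means on early, middle and late days were 1.80, 25.3 and 75.1 for Eln, 219, 523 and 1196 for Mfap4, and 181, 346 and 663 for Mfap5. Emilin1, with 52.0, 140 and 180 TPM, gained more before it, and Mfap2, with 27.8, 213 and 399 TPM, gained about as much before as after. The call of Mfap5 was lost without day 4 (0.82, adjusted P = 0.0608), and those of Fbln1 and Fbln5 were gained without day 6 (1.50 with adjusted P = 0.00834 and 0.62 with adjusted P = 0.00950). Fbln1 also passed in DESeq2 (0.92, adjusted P = 0.0370). Fbln1 and Fbln5 both passed with the 27 profiles as separate libraries, a fit that counts the lanes of 1 library as independent. Between days 8 to 12 and days 14 to 18 edgeR called 0 members and 0 genes in all, a background of 0%, although 2557 genes had an unadjusted P under 0.05. DESeq2 called 562 genes (3.59%) in that contrast, of which Mfap4 (1.18, adjusted P = 0.0315) and Mfap5 (0.81, adjusted P = 0.0212) were members. Without day 12, edgeR called 379 genes in all, Eln (2.62, adjusted P = 0.0428) and Mfap5 (1.07, adjusted P = 0.0314) among them. The natural spline called 9 of the 10 members, against 59.1% of all genes, and missed Fbn1 (edgeR adjusted P = 0.129), which it called without day 2 (adjusted P = 0.0409).

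**Figure D2:**
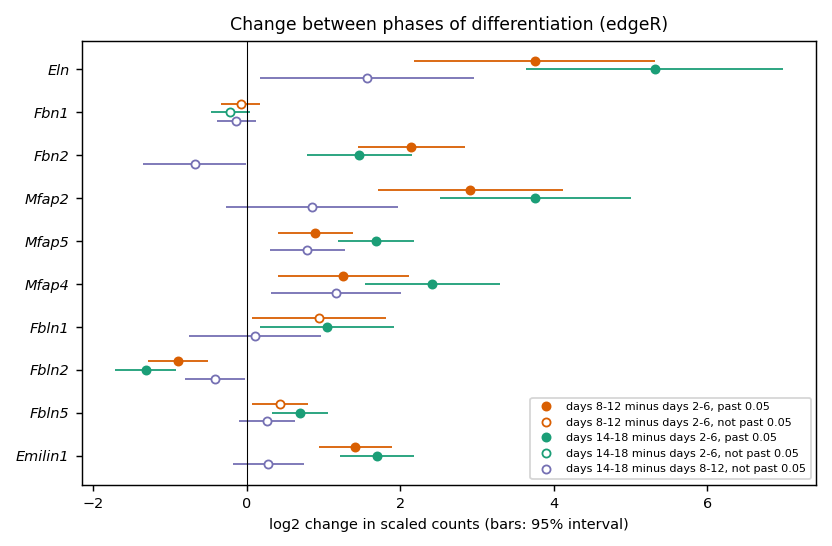
Log2 difference of fitted counts between phases (horizontal axis) for each gene (vertical axis), with 95% intervals from edgeR, where a filled symbol has an adjusted P under 0.05. The contrast of late with early days has 9 filled symbols, with Eln at 5.31 and Fbln2 at -1.32, and the contrast of late with middle days has 0.

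The genes that rose did so at different times. As a description of timing, the first day on which a gene reached 50% of its own highest level was day 2 for Fbn1 and Fbln2, day 4 for Fbln5, day 6 for Fbln1, day 8 for Fbn2 and Emilin1, day 12 for Eln, Mfap2 and Mfap5, and day 14 for Mfap4. By this mark, fibulins that rose came first, the developmental fibrillin and Emilin1 next, and elastin and the microfibril-associated genes last. Neighbours in this order were not separated by any test, and Mfap2 was at 49.1% on day 10 and reached the mark on that day with TPM as deposited. The mark depends on the starting level, and Fbln5 was already at 41.2% of its highest on day 2. The largest log2 step between neighbouring days sampled gave another order. It lay at days 2 to 4 for Fbln1, Fbln5 and Mfap2, and at days 4 to 6 for Mfap4. For Fbn2 and Emilin1 it lay at days 6 to 8, for Eln at days 8 to 10 and for Mfap5 at days 10 to 12.

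**Figure D3:**
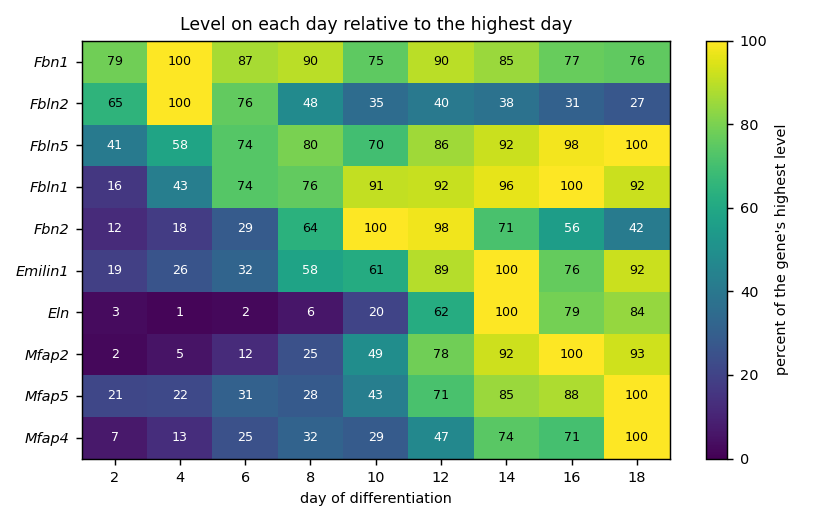
Level of each gene (rows) on each day (columns) as a percent of that gene's highest day, from normalized TPM. Fbn1 is above 75% on every day, Fbln2 reaches its highest (brightest) level on day 4 and Fbn2 on day 10, and Eln is below 7% through day 8 (dark cells).

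The members' patterns were also set against each other by the correlation of log2(TPM + 1) over the 9 days, which share their order, so that any trend alone gives a high value and no P is given. Of 45 pairs, 14 had r above 0.9 and 16 were below 0, and the median was 0.736. Eln lay closest to Mfap5 (r = 0.968) and ran opposite to Fbln2 (r = -0.911). The pair with the highest r was Mfap2 and Emilin1 (r = 0.982). Fbn1 had a positive r with Fbln2 alone (0.710), as both were highest on day 4.

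Among 7656 genes with a mean of at least 10 TPM, those whose course over the 9 days was most like that of Eln were 9430020K01Rik (r = 0.995), Lifr (0.994) and Snapin (0.994). For Fbn2 they were Fibin (0.982), Col9a3 (0.980) and Helb (0.975), each of which was highest on day 10 as Fbn2 was. For Mfap5 they were Bloc1s1 (0.994), Rarres2 (0.990) and Dpep1 (0.990), and for Fbn1 2810403A07Rik (0.941), Gria3 (0.915) and Fem1c (0.907).

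The summed level of the 10 genes was 913 TPM at the start (day 2) and 3292 TPM at the end (day 18). Its makeup changed with it. Fbln2 held 46.4% of the sum on day 2, 49.1% 2 days later and 5.40% at the end, while Mfap4 went from 11.1% to 44.5%. Fbn1 went from 15.3% to 4.09% of the sum at a nearly level TPM, Mfap2 from 1.02% to 11.9%, and Mfap5 from 17.1% to 22.2%. On counts, which do not divide by length, the long Fbn1 message weighed more (41.8% at the start), Fbln2 went from 42.7% to 11.3%, and Mfap4 from 3.28% to 30.4%.

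**Figure D4:**
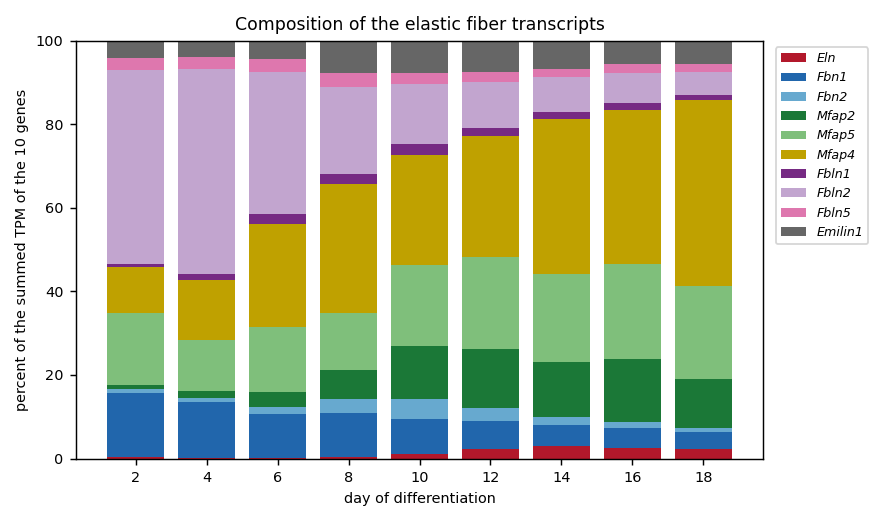
Share of each of the 10 genes in their summed normalized TPM (vertical axis, percent) on each day (horizontal axis), as stacked bars. The Fbln2 segment shrinks from 46.4% on day 2 to 5.40% on day 18 and the Mfap4 segment widens from 11.1% to 44.5%.

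By mean level over the days the order was Mfap4 (646 ± 459 TPM, SD, n = 9 days), Mfap5 (397 ± 229), Fbln2 (333 ± 158), Mfap2 (214 ± 171), Fbn1 (150 ± 14.9), Emilin1 (124 ± 60.9), Fbln5 (48.2 ± 12.0), Fbn2 (41.8 ± 24.7), Fbln1 (35.5 ± 13.3) and Eln (34.1 ± 35.0). Each gene differed from the next by less than the larger of their SDs over days, except Emilin1 from Fbln5. Part of this order depends on how reads were divided among transcripts. The abundance-weighted length of Emilin1 was 35.3% of its longest transcript, a coding form of 3853 bases. It lay between 1314 and 1444 bases over the days, below both coding forms (3853 and 3048 bases). Most of the TPM of Emilin1 was thus assigned to its retained-intron forms of 601 and 864 bases. By total estimated counts, Fbln5 (65594) stood above Emilin1 (32715). The weighted length of Mfap5 was 30.1% of its longest, a retained-intron form of 2491 bases, and lay between 695 and 813 bases, near its coding forms of 748 and 946 bases. Eln, Fbn2 and Fbln5 had the same length in every profile. For Fbn1, 25 of the 27 profiles had fractional counts, which the other members never had, as RSEM gives them where a read fits more than 1 gene.

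In the mouse build NCBIM37, Eln is at chr5:135179651-135223111 on the minus strand and Emilin1 at chr5:31215775-31223651 on the plus strand. Fbn1 is at chr2:125126330-125333729 (minus), Mfap2 at chr4:140566333-140571899 (plus) and Mfap4 at chr11:61298933-61302402 (plus). Mfap5 at chr6:122455863-122479308 (plus) and Fbln2 at chr6:91162449-91222534 (plus) share chromosome 6 without being neighbours. Fbln1 is at chr15:85036379-85116965 (plus) and Fbln5 at chr12:102984775-103057265 (minus). Positions cover whole genes with their exons and introns, and counts were over all exons.

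Promoter sequence is shown for Mfap2, Fbln1 and Fbln5, members that rose to different degrees and reached 50% of their highest level on different days. Of the entries of each gene, the window farthest upstream is shown, which held 6 annotated exon bases for Mfap2 and 0 for the others. Each run holds the 250 bases before a RefSeq transcript start, from a table of build GRCm38.p6 matched exactly to NCBIM37, and is written 5′ to 3′ on the strand of the gene. Capitals mark motifs found on either strand among TATAAA (the TATA box), GGGCGG (the GC box), CCAAT (the CCAAT box), CAGAC (of the SMAD type), TGANTCA (of the AP-1 type) and TGTGGT (of the RUNX type). The Mfap2 window is chr4:140566089-140566338 (plus), that of Fbln1 chr15:85036129-85036378 (plus) and that of Fbln5 chr12:103057330-103057579 (minus). No entry was matched for Eln, Fbn2, Mfap4 and Mfap5.
Mfap2: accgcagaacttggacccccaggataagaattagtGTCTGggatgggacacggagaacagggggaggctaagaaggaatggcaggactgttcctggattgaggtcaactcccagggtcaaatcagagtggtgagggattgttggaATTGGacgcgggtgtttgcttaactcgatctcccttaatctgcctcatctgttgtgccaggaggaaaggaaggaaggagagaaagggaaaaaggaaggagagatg
Fbln1: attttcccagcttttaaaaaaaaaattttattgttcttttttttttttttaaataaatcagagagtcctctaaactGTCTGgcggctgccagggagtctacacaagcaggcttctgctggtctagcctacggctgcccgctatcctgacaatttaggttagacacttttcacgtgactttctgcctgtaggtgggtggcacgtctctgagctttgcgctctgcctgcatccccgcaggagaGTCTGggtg
Fbln5: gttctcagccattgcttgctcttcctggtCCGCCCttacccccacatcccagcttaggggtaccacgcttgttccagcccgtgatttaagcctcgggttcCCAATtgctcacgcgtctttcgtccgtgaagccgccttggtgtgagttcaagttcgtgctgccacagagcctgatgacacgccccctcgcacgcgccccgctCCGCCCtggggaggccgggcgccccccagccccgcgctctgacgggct
The Mfap2 window held CCAAT 105 bases and CAGAC 215 bases before the start. That of Fbln1 held CAGAC at 174 and 9 bases, and that of Fbln5 held GGGCGG at 221 and 48 bases and CCAAT at 150 bases. Of 27025 windows of the same length, 34.5% held CCAAT, 42.1% CAGAC and 32.9% GGGCGG, so these matches are common ones. TATAAA (13% of windows), TGANTCA (6.87%) and TGTGGT (14.2%) were in none of the 3 windows.

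Elastin and microfibrils need other proteins for assembly, and 4 lists of them were counted on the line, beside the 54.3% of all genes called in either direction. Of 13 genes for crosslinking and assembly, 4 rose and 6 fell, with a median log2 change of 0.14. Fbln7, a cell-adhesive fibulin, rose by 7.51 (edgeR adjusted P = 2.52e-05), which is 183-fold on the line. Its level was 0.192 TPM at the start and 17.6 TPM at the end, a ratio of 91.7. Hmcn1, which encodes the giant fibulin-like protein hemicentin, rose by 3.57 (edgeR adjusted P = 0.0152) by counts, but its TPM was 1.19 at the start, 3.08 at its highest on day 12 and 1.56 at the end. The falls were led by the lysyl oxidase relatives Loxl2 (-2.49, edgeR adjusted P = 0.000382) and Loxl4 (-2.22, edgeR adjusted P = 0.00872). Lox, the enzyme that crosslinks elastin and collagen, was named after its values were seen: it started at 960 TPM, ended at 667 TPM, and fell by 0.62 on the log2 scale (SE = 0.22, edgeR adjusted P = 0.0381). Lox was lowest on day 10 at 536 TPM and had 660 and 673 TPM on days 12 and 14, and its change of 0.12 between days 8 to 12 and days 14 to 18 did not pass (edgeR adjusted P = 0.734). It stayed above the level of Eln on every day.

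Of 13 latent TGF-beta binding proteins and fibrillin partners, 12 were tested, 6 rose and 3 fell (median 0.80). The secreted metalloproteinase Adamts17 rose from 0.0575 to 11.4 TPM between the first and the last day (8.44, edgeR adjusted P = 7.88e-05). These days differed 199-fold, against 348-fold on the line. Adamtsl4, which binds fibrillin-1, rose by 3.01 (edgeR adjusted P = 0.000219). Ltbp1, which anchors latent TGF-beta in the matrix, fell by 1.89 (edgeR adjusted P = 0.000180), and Adamts6 fell by 0.89 (edgeR adjusted P = 0.00429).

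Of 9 elastin-degrading proteases, 7 were tested and all 7 of them rose (median 2.29). Cathepsin S (Ctss), an elastase of macrophage lysosomes, rose by 6.01 (edgeR adjusted P = 1.08e-05), between levels of 0.805 and 43.6 TPM on the first and last days. Mmp9, a gelatinase known from osteoclasts and macrophages, rose by 3.90 (edgeR adjusted P = 0.0131) at levels of at most 2.93 TPM. Of the macrophage markers, 6 of 7 rose, and their summed level was 24.1 to 61.7 TPM on days 2 to 6 and 522 to 2014 TPM on days 14 to 18. Most of that sum was Lyz2, with 1855 TPM on day 18. Over days 14, 16 and 18 the sum was 522, 877 and 2014 TPM. Ctss (8.36, 17.1 and 43.6 TPM) and Mmp12 (0.808, 3.78 and 4.15 TPM) rose on the same days. Mmp9 fell (2.93, 1.52 and 1.38 TPM), and Mmp2, Mmp14, Ctsk and Ctsl changed less. The part of macrophages in the rise of the proteases was not tested.

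Of 10 receptors of elastin and microfibrils, 5 rose and 3 fell (median 0.78). Itga8, an integrin alpha chain that binds RGD motifs, rose by 1.95 (edgeR adjusted P = 3.32e-06), and Neu1, the sialidase of the elastin receptor complex, rose by 1.32 (edgeR adjusted P = 0.0115). The chains of the fibronectin receptor fell, Itga5 by 2.34 (edgeR adjusted P = 5.16e-05) and Itgb1 by 1.57 (edgeR adjusted P = 0.000151).

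**Figure D5:**
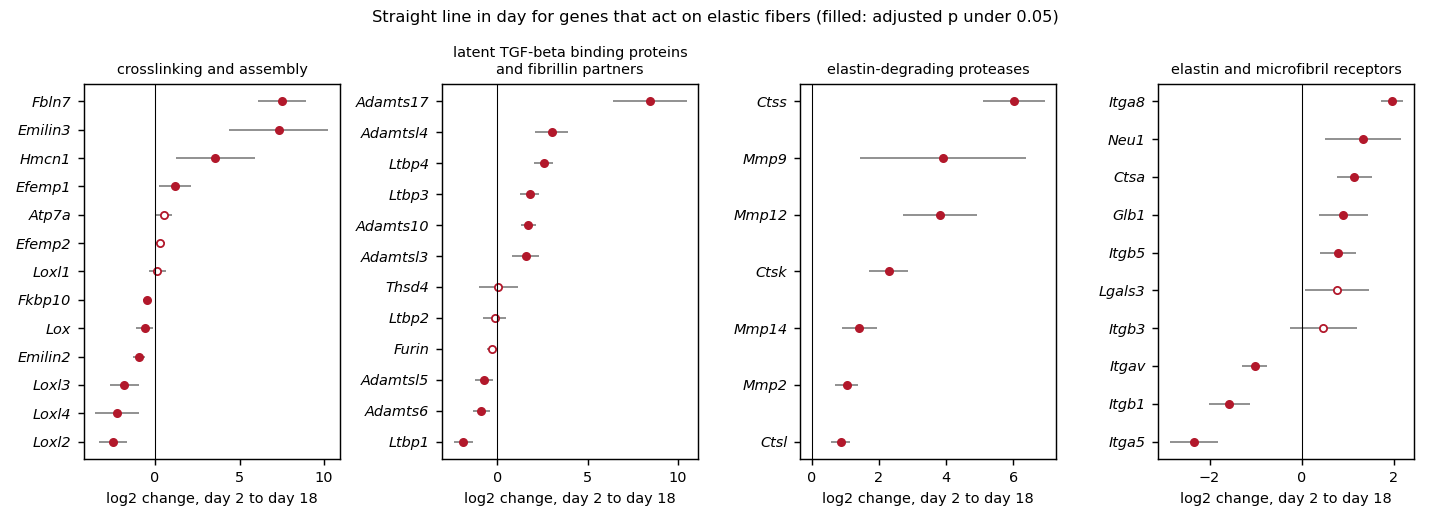
Log2 change over 16 days on the straight line (horizontal axis) for each tested gene of 4 lists (panels: crosslinking and assembly, latent TGF-beta binding proteins and fibrillin partners, proteases, receptors), with 95% intervals from edgeR. All 7 proteases lie above 0, and the other panels hold genes on both sides.

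Markers of cell types were set beside the members. Osteoblast markers rose in 6 of 8, with a summed level of 1616 to 2418 TPM on days 2 to 6 and 3647 to 4683 TPM on days 14 to 18. Most of that sum was Col1a1, with 1526 TPM on day 2 and 4263 TPM on day 18. Day 18 was 168-fold above day 2 for Bglap, 135-fold for Ibsp, 128-fold for Dmp1 and 110-fold for Phex. It was 2.79-fold above day 2 for Col1a1 and 1.34-fold for Runx2. Sp7 and Alpl, which mark committed osteoblasts, did not pass on the line. The natural spline called both (edgeR adjusted P = 1.20e-05 for Sp7 and 0.00765 for Alpl). Sp7 had 32.3 TPM at the start, 2.77 on day 8 and 10.6 at the end. Alpl had 9.13 TPM at the start, 0.467 on day 6 and 17.6 at the end. Smooth muscle markers, of interest because such cells are known makers of elastin, fell in 5 of 5, from 3037 to 6185 TPM early to 989 to 1133 TPM late, so they were lower where Eln was higher. Most of the smooth muscle sum was Acta2, with 5155 TPM on day 2 and 868 TPM on day 18. Adipocyte markers rose in 5 of 5, from 3.21 to 7.44 TPM to 188 to 407 TPM, and macrophage markers rose as given above. Cycling markers fell in 4 of 4, from 249 to 296 TPM to 63.0 to 80.9 TPM. Endothelial markers summed to at most 12.0 TPM on any day, with Pecam1 at no more than 0.339 TPM, and 2 of the 3 tested rose and 1 fell. Chondrocyte markers summed to 106 to 129 TPM early and 99.7 to 128 TPM late, with 2 of 4 higher and 1 lower. No marker was at 0 on all days. The part of these cell types in the changes of the 10 genes was not tested.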

How the data were processed

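RNA of sorted calvarial cells was amplified with the NuGEN Ovation step and sequenced from TruSeq libraries on 9 days of differentiation (27 profiles, 3 per day). The authors aligned reads with Bowtie 0.12.9 and quantified them with RSEM 1.2.8, per the submitters' processing notes, on the mouse build NCBIM37. Whether counting used strand was not given in the sources used here. The authors deposited expected counts per gene as RSEM gave them, with reads that fit several transcripts shared among these. The authors also deposited TPM and FPKM and abundance-weighted transcript lengths from RSEM. Of 37991 gene identifiers, 37205 had a symbol.

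Estimated counts were rounded and summed over the 3 profiles of a day. Genes passing filterByExpr of edgeR 4.0.16 (R 4.3.3) with a minimum count of 10 (15659) were fitted with upper-quartile factors and the quasi-likelihood test, as a line in day, as 3 phases and as a natural spline with 3 degrees of freedom. P values were adjusted by Benjamini-Hochberg over all genes tested, and the SE is the absolute log2 change divided by the square root of F. TPM were scaled to the 75th percentile of values above 0. The alternatives were TMM factors, DESeq2 1.42.0, limma 3.58.1 on log2(TPM + 1), a lower count filter, a fit without mitochondrial ribosomal RNA (28.6 to 35.4% of TPM), the 27 profiles with and without a replicate block, a spline with 2 degrees of freedom, TPM and FPKM as deposited, and leaving out each profile number and each day. Counting error per library was small for most members, as the total per profile was 7331125 to 20888956. Of the fits, only the edgeR straight line was tested on simulated counts.

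The named genes were the 10 members and, from each pathway list, up to 2 with the largest rise and 2 with the largest fall past the threshold of the line at a mean of at least 1 TPM, and the 3 genes most like a member. Members and lists were chosen with earlier results of these data known. The RefSeq promoter table gave sequence for 6 members, and for 3 of them the entry farthest upstream is printed. For Fbn1, Fbln2 and Emilin1 the windows lay wholly in annotated exons and were not printed.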

Additional observations from a re-analysis of the deposited data

How the results depend on the processing

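Of 840 recomputed values of the members, 785 kept direction and side of the threshold, 14 were weaker, 40 stronger and 1 reversed: Fbn1 between days 2 to 6 and days 8 to 12 was 0.0055 without day 4 (adjusted P = 0.979), and from -0.13 to 0.0055 over the days left out. The count of members lower on the line went from 1 to 2 with TMM factors, with DESeq2 and with 27 profiles, and was 1 to 2 when 1 day was left out (2 without day 2), as Fbn1 then passed. Members higher on the line went from 7 to 8 in DESeq2, in limma, with 27 profiles and without day 18, as Fbn2 then passed, and to 6 without day 4. Treating the 27 profiles as separate libraries, with or without the replicate block, also gave 2 members lower between days 2 to 6 and 14 to 18. Of the 13835 genes tested in this setting, 5312 were lower there without the block and 5269 with it. It gave 5 members higher and 3 lower between days 8 to 12 and 14 to 18. There 2443 of the 13835 genes were higher and 3205 lower without the block, and 2308 and 3053 with it. Over all 13835 genes it called 9621 without and 9456 with the block between days 2 to 6 and 8 to 12, and 5648 and 5361 between days 8 to 12 and 14 to 18. These fits count the lanes of 1 library as independent, so the scatter of days enters as if each day were replicated and the counts are too high. Leaving out replicate 1, 2 or 3 changed no call of a member. Same-numbered profiles did not deviate together (mean correlation 0.0100, lowest -0.300, against -0.00502 for different numbers, over 7656 genes), so the numbers pair nothing. DESeq2 gave 2 members higher and 562 genes between days 8 to 12 and 14 to 18. Leaving out 1 day at a time gave 0 to 2 members higher and 0 to 379 genes there (the highest without day 12), and 2175 to 6257 genes between days 2 to 6 and 8 to 12, the lowest counts without days 10 (2221), 12 (2175), 2 (2925) or 4 (2630). The mean level in FPKM as deposited was 96.8 for Fbn1 and 30.8 for Fbln5, as the unit differs. As alternatives chosen after seeing the data, Mfap2 reached 50% of its highest level on day 10 by TPM as deposited and by counts scaled to library size. Depth limits Eln and Mfap2 most, on days 2 to 6. With 1 library per day, differences between single days could not be tested.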
